A study of Homo sapiens with 68 samples.

Results

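EIF4G2 (ENSG00000110321) is a protein-coding gene on the minus strand of chromosome 11, and the small nucleolar RNA SNORD97 lies inside one of its introns. All peaks carrying this gene identifier were taken from every list, 1343 of 15800601 peaks in 68 libraries. They were divided into those overlapping the SNORD97 window, chr11:10823000-10823160 on the minus strand of hg19 (161 nt), and those on the rest of the transcript. The window held 164 peaks and the rest 1179. The gene and the window were selected on read numbers measured in these same libraries, so the values of the window by antibody, gel step and crosslinking are a description, with no test. The lists give gene identifiers without names, so no peak in them is labelled SNORD97. A second identifier, ENSG00000238622, also had peaks in the window, and whether it stands for SNORD97 could not be checked. The name rests on the stated position of the window and on RefSeq, where SNORD97 is a snoRNA of 142 nt.

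EIF4G2, also called DAP5, is a relative of the translation initiation factor eIF4G that lacks the binding site for the cap-binding protein eIF4E and supports initiation on selected mRNAs. SNORD97 is a box C/D snoRNA. RNAs of this class are released from spliced introns, assemble with fibrillarin and its partner proteins, and guide 2′-O-methylation of a target RNA, which for SNORD97 is the elongator methionine tRNA. Such RNAs are abundant, short and stably bound by their own proteins, unlike the intron and mRNA stretches around them.

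The libraries were made by TLC-CLIP from HEK293T, a human embryonic kidney line. In CLIP, ultraviolet light links proteins to the RNA they touch, the RNA is trimmed with RNase, 1 protein is immunoprecipitated and the RNA left on it is sequenced. There were 34 groups of 2 libraries, and whether the 2 came from separate cultures is not given in the sources used here, so their spread may be technical. The antibodies were against hnRNPA1, which binds UAG-like motifs in exons, introns and UTRs, hnRNPc (hnRNP C), a binder of uridine tracts in nascent RNA, hnRNPI (PTBP1), a binder of pyrimidine-rich tracts, and RBFOX2 (antibody RBM9), which recognises GCAUG.

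For each of the 4 antibodies there were crosslinked libraries from 50000 cells with 0.005 U RNase in 3 forms. The group lowRNase was gel purified (PAGE), noPAGE left the gel out, and noPAGE_RecJ added RecJ, an exonuclease used to remove leftover adapter. The groups noUV and noUV_noPAGE left out the crosslinking, with and without the gel. hnRNPA1 and hnRNPc also had crosslinked libraries with 0.025 U RNase (mediumRNase). hnRNPc had libraries without PAGE that the titles give as 5000 and 500 cells, although their cell number label is 50000. hnRNPc and RBFOX2 had crosslinked libraries from 10000 and 1000 cells with 0.001 and 0.0001 U RNase. The other 8 libraries came from 4 gel regions away from the protein. They are labelled as crosslinked hnRNPc libraries with PAGE, from 10000 cells with 0.001 U RNase. That the noUV libraries were not crosslinked comes from their titles and the series description, since every sample carries the same crosslinking protocol. By accession, the noUV, 10k, 1k and gel-region libraries form a block of their own. The other block holds the remaining 50k libraries and the hnRNPc libraries titled 5000 and 500 cells. Any difference in preparation between these blocks cannot be told apart from the crosslinking.

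The number of sequenced reads is not given, so depth is unknown, and no counting interval or detection limit could be set. List length is the nearest stand-in. It ranged from 3268 to 523402 peaks outside the gel-region libraries, and the 3268 belong to hnRNPc_50k_lowRNase replicate 1, which stood far below its partner at 214849 and listed no EIF4G2 peak. Lists without crosslinking were shorter than those of the matching crosslinked 50k group for all 4 antibodies without PAGE and for all but hnRNPc with PAGE, where the 2 noUV lists (299616 and 299307 peaks) were longer. Without PAGE they held 180477 to 196278 peaks for hnRNPA1 against 450313 to 523402 in its crosslinked libraries without PAGE, and for RBFOX2 52842 to 61242 against 157375 to 161434. Each peak name ends in a whole number, which no source explains and which was taken here as a read number. "Reads" below means this listed number. Reads in the window are also given per 1000000 listed reads of the library (RPM), where peaks of 1 gene less than 30 nt apart on a strand count once, by the highest of them.

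The SNORD97 window was listed in 51 of the 60 libraries outside the gel regions. It was present in all 16 noUV libraries, in all 6 crosslinked hnRNPI libraries, in all 10 crosslinked RBFOX2 libraries and in 19 of 20 crosslinked hnRNPc libraries. Under EIF4G2 it was absent from all 8 crosslinked hnRNPA1 libraries. The missing hnRNPc library is the one with the short list. None of the 8 gel-region libraries listed it, but their lists held only 303 to 6716 peaks, and they held 7 EIF4G2 peaks among them.

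The window was highest with the hnRNPI antibody in every condition. The highest peak there had 9577 and 7063 reads in the 2 crosslinked libraries with PAGE. Without PAGE it had 10851 and 10801 reads, and with RecJ 9443 and 9670. Without crosslinking it still had 2215 and 2775 reads with PAGE, and 6638 and 8731 without PAGE. No other antibody passed 570 reads, so the groups did not overlap. Ordered by reads among all listed peaks, the SNORD97 peak stood at places 6 and 18 in the crosslinked libraries with PAGE and at 51 and 37 without it. In the noUV libraries with PAGE it stood at places 2 and 1, and in those without PAGE at 10 and 7, so it was among the top peaks of the whole list with or without crosslinking. These places count other window peaks too, also those of the second identifier. In noUV_hnRNPI replicate 1 the highest read number of the list, 2222, was also the highest of that identifier in the window.

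Scaled to the list, the hnRNPI window stood at 2344 ± 150 RPM (SD, n = 2) with crosslinking and PAGE and at 12708 ± 2159 RPM (SD, n = 2) with PAGE and no crosslinking. Without PAGE the values were 1716 ± 68.7 RPM (SD, n = 2) crosslinked and 5810 ± 820 RPM (SD, n = 2) not crosslinked. The uncrosslinked value was thus 5.42 times the crosslinked one with PAGE and 3.39 times without it, and in both settings the libraries of the 2 groups did not overlap. The shift ran against that of the features as a whole: without PAGE, the median log2 difference of RPM + 1, crosslinked minus noUV, was 1.52 over all features for hnRNPI and -1.75 for the window. The noUV hnRNPI lists were also much shorter, at 44086 to 78945 peaks without PAGE against 335107 to 353415. The part that list length has in the higher share was not tested.

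RBFOX2 came next. The highest window peak had 258 and 217 reads with PAGE, 510 and 570 without PAGE, and 487 and 474 with RecJ. In the noUV libraries it had 37 and 25 reads with PAGE, and 67 and 75 without. The 4 crosslinked libraries without PAGE all stood above the 2 with PAGE, which in turn stood above all 4 noUV libraries. In RPM the order changed: 134 ± 8.05 (SD, n = 2) without PAGE, 118 ± 0.403 (SD, n = 2) with RecJ, 89.7 ± 10.5 (SD, n = 2) in noUV with PAGE, 69.6 ± 7.02 (SD, n = 2) in noUV without PAGE and 59.3 ± 3.93 (SD, n = 2) crosslinked with PAGE. The last pair in this order lay close together, with 64.7 the lower of the 2 noUV libraries and 62.1 the higher of the 2 crosslinked ones. RBFOX2 was the only antibody of the 4 whose window was higher with crosslinking when PAGE was omitted, by 1.93-fold, or 0.94 as a log2 difference of RPM + 1, where the median over all features was 0.72. With fewer cells and less RNase the window held 66 and 92 reads in the 10k libraries, or 37.3 ± 3.82 RPM (SD, n = 2), and 24 and 33 reads in the 1k libraries, or 65.2 ± 2.28 RPM (SD, n = 2).

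With hnRNPc the window was a minor peak. Its highest peak had 56 and 49 reads in crosslinked libraries without PAGE and 48 and 61 with RecJ. In the noUV libraries it had 110 and 121 reads with PAGE, and 51 and 72 without. The crosslinked libraries without PAGE stood at 7.83 ± 1.29 RPM (SD, n = 2), against 20.4 ± 1.75 RPM (SD, n = 2) in noUV without PAGE and 29.4 ± 2.51 RPM (SD, n = 2) in noUV with PAGE. The other crosslinked hnRNPc groups outside the gel regions, from 50000 down to a titled 500 cells, had means from 6.28 to 10.8 RPM, apart from the lowRNase group, where 1 library had 10.3 and the short list had none. The crosslinked hnRNPc values therefore stayed within a narrow range over cell numbers and RNase amounts, below every noUV hnRNPc library.

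With hnRNPA1 the window was listed under EIF4G2 only without crosslinking. The noUV libraries listed 104 and 105 reads with PAGE, or 44.9 ± 5.90 RPM (SD, n = 2), and 55 and 66 reads without PAGE, or 16.9 ± 0.441 RPM (SD, n = 2). The crosslinked libraries list no EIF4G2 peak in the window. The smallest EIF4G2 peak they listed elsewhere had 20 to 39 reads at 0.005 U RNase and 8 reads in both libraries at 0.025 U. A second identifier, ENSG00000238622, for which the files give no gene name, also had peaks in this window, 108 in 50 libraries. Under it, 3 of the 8 crosslinked hnRNPA1 libraries listed window peaks of 13, 17 and 27 reads, each below the smallest EIF4G2 peak of that library (20, 31 and 34). Weak window signal in crosslinked hnRNPA1 libraries was thus listed under 1 identifier and not under the other. In the 47 libraries with both identifiers, the top read number under the second was a median of 0.918 times that under EIF4G2, from 0.609 to 1.07. The 2 identifiers share the position, and whether they share reads cannot be read from peak lists.

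**Figure D1:**
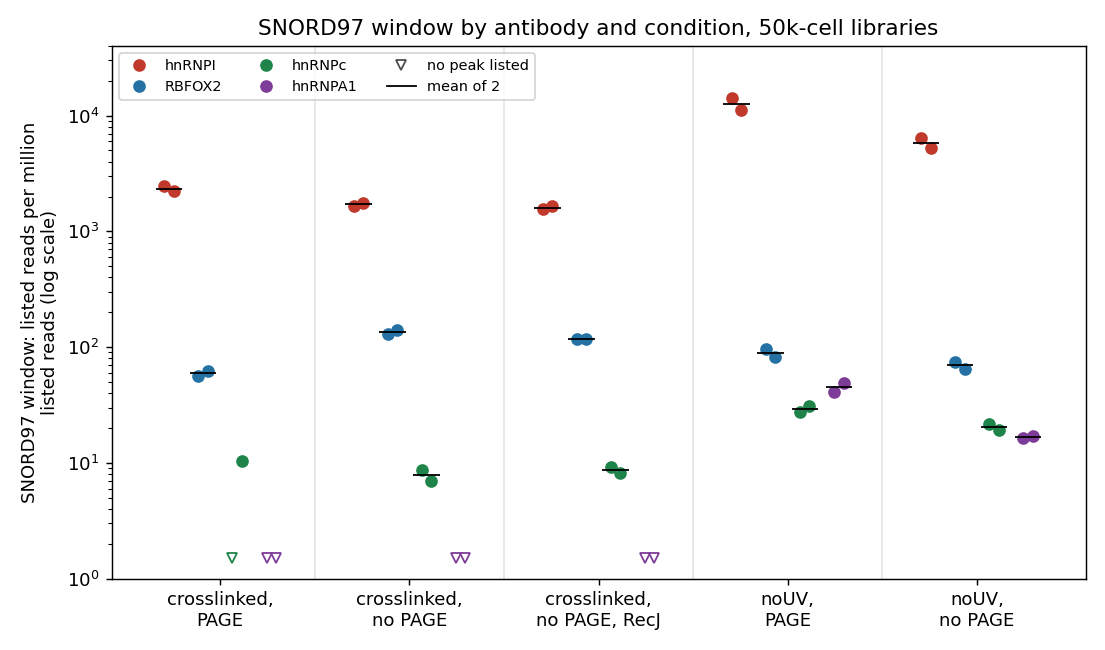
Listed reads in the SNORD97 window per 1000000 listed reads (RPM, log scale) in the 40 libraries from 50000 cells at 0.005 U RNase, by condition (x axis) and antibody (colour). Each dot is 1 library, the line is the mean of 2, and an open triangle at the bottom marks a library with no listed peak. hnRNPI stands above all others in each condition, and hnRNPA1 has values under EIF4G2 only without crosslinking.

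The listed stretch within the window also differed by antibody. All window peaks lay within positions 10823014 to 10823155, a stretch of 142 nt, which equals the RefSeq length of SNORD97. On the minus strand the higher coordinate is the 5′ side. Crosslinked RBFOX2 libraries from 50000 cells covered 140 to 142 nt of it, and crosslinked hnRNPI libraries without PAGE, RecJ included, 139 or 140 nt. The crosslinked hnRNPI libraries with PAGE stopped sooner on the 5′ side, at 10823125 and 10823119. In all 4 noUV hnRNPI libraries the listed stretch shrank to 80 to 83 nt in the middle, from 10823043 to between 10823122 and 10823125.

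The noUV hnRNPA1 peaks covered the opposite part. They ran from 10823014 or 10823015, the 3′ end of the stretch, to between 10823048 and 10823057, only 34 to 44 nt. They met the noUV hnRNPI stretch only between 10823043 and 10823057. The noUV hnRNPc libraries listed 81 to 99 nt and the noUV RBFOX2 libraries 99 to 125 nt, and neither began before 10823028, so both left out the 3′ end that the hnRNPA1 peaks covered. The noUV libraries of the 4 antibodies therefore did not list 1 and the same stretch of the snoRNA. Peak borders depend on the number of reads and on the caller, and no test of the borders was made.

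**Figure D2:**
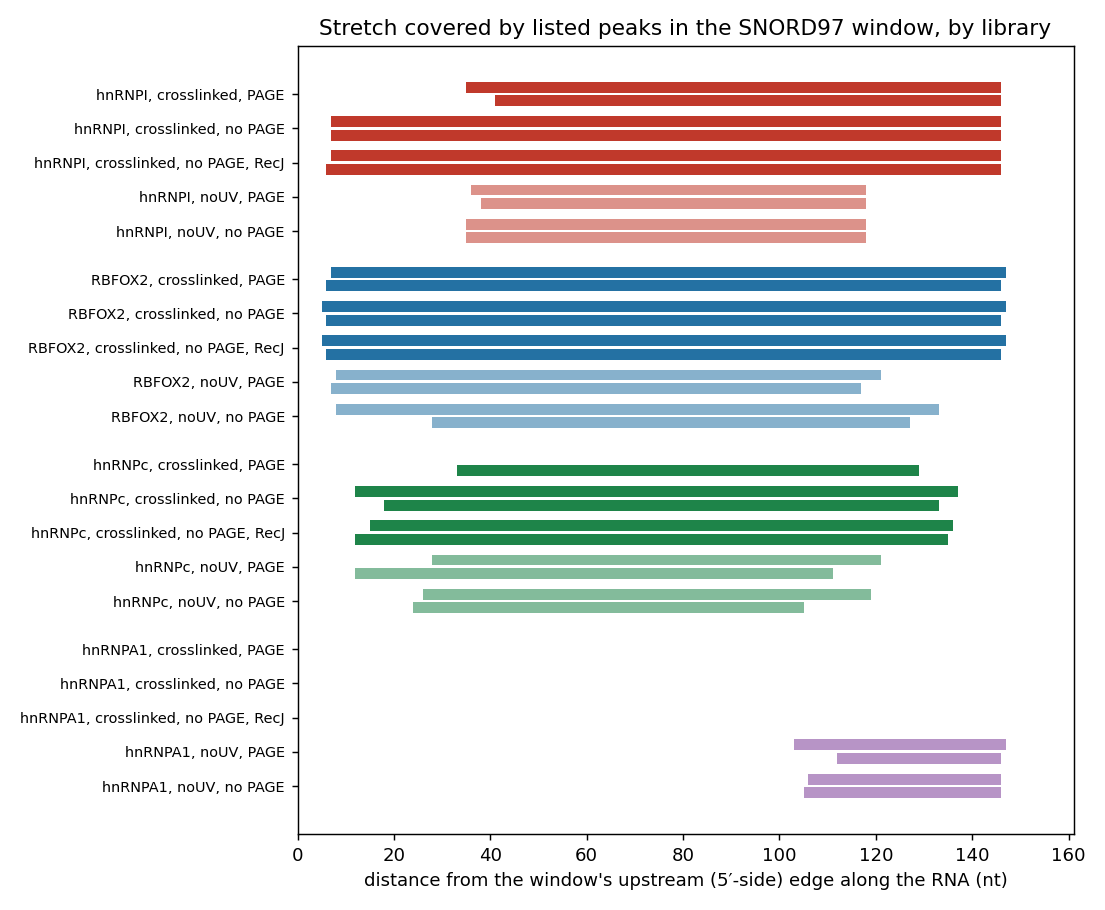
Stretch between the outermost listed peaks in the SNORD97 window for each of the 40 libraries, 1 bar per library, drawn along the RNA from the 5′-side edge of the window (x axis, nt). Full colours are crosslinked and pale colours noUV libraries. An empty row is a library with no listed peak. Crosslinked RBFOX2 bars, and crosslinked hnRNPI bars without PAGE, span 139 to 142 nt, those of hnRNPI with PAGE 111 and 105 nt, noUV hnRNPI bars are central, and hnRNPA1 bars lie at the 3′ side.

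RecJ treatment was the 1 comparison of the window that could be tested, since it played no part in the choice. Over the 4 antibodies the window differed by -0.03 ± 0.31 (SE, log2 of RPM + 1) between noPAGE_RecJ and noPAGE, with an adjusted p of 1 (limma, Benjamini-Hochberg over 13344 features, 2 libraries per group). The hnRNPA1 part of this mean is fixed at 0, since neither of its groups listed a window peak under EIF4G2. None of the features passed the threshold of 0.05, which makes 0% the background, and 39 had an unadjusted p below 0.05. For hnRNPI the means were 1605 ± 66.1 RPM with RecJ and 1716 ± 68.7 RPM without (SD, n = 2 each).

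The share of the gene's reads that fell in the window set the antibodies apart. In all 10 hnRNPI libraries the window held 100% of the listed EIF4G2 reads, and 0 peaks were listed on the rest of the transcript. For RBFOX2 it held 45.2% ± 3.65 (SD, n = 2) without PAGE, 32.5% ± 2.62 (SD, n = 2) with PAGE, and 20.3% ± 5.00 and 27.6% ± 1.63 (SD, n = 2 each) in the noUV groups without and with PAGE. With RecJ it held 38.1% ± 1.56 (SD, n = 2). The crosslinked 10k and 1k groups of RBFOX2 had 16.0% ± 4.13 and 23.4% ± 1.70 (SD, n = 2 each). Crosslinked RBFOX2 shares were thus not always above the noUV ones. For hnRNPc outside the gel regions the group means lay between 4.69% and 10.3%, and for noUV hnRNPA1 they were 3.77% ± 0.533 and 8.45% ± 1.40 (SD, n = 2 each).

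The absence of hnRNPI peaks elsewhere in EIF4G2 went together with a high listing floor. The smallest EIF4G2 peak listed in the hnRNPI libraries, in each case a window peak, had 228 to 8611 reads. In the 49 libraries of the other antibodies that listed the gene it had 5 to 39 reads, and their highest peak outside the window had 10 to 438. In 44 of those 49 libraries the highest peak outside the window was under 228 reads, the smallest EIF4G2 value listed for hnRNPI. Over all genes, too, the smallest listed peak was higher in genes with a high top peak. In hnRNPI_50k_noPAGE the median smallest peak was 5 reads in genes whose highest peak was under 100 reads, in both libraries, and 146 and 181 reads in genes whose highest peak reached 1000. The floor of EIF4G2 lay above these medians: it was 1141 and 1035 reads in the same libraries. In noUV_noPAGE_hnRNPI replicate 2 it was 8611 reads, where genes whose highest peak reached 1000 had a median smallest peak of 33 reads. The part of the floor in the missing hnRNPI peaks was not tested.

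**Figure D3:**
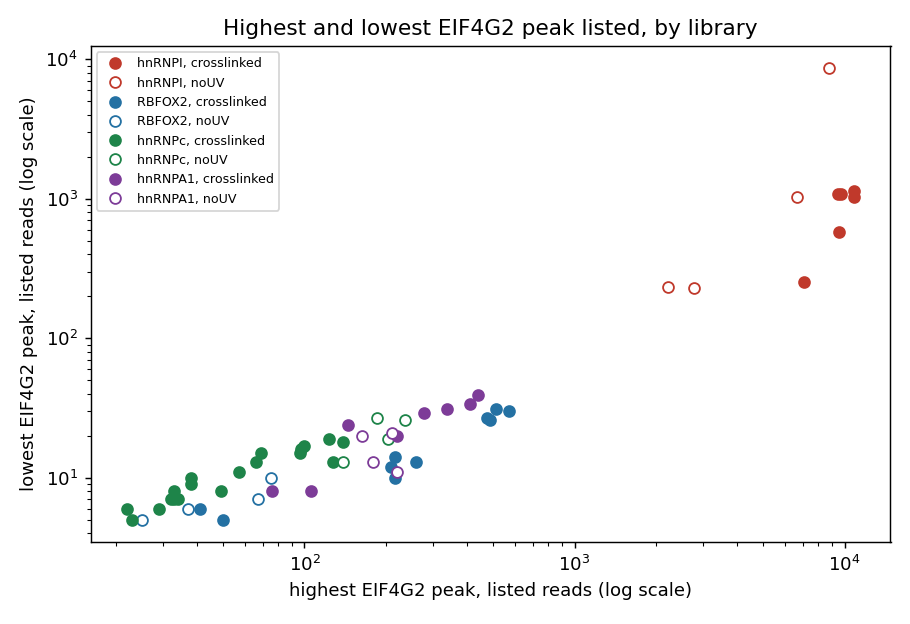
Highest (x axis) and lowest (y axis) listed read number of an EIF4G2 peak in each library outside the gel regions that listed the gene, both on log scales, with filled dots for crosslinked and open dots for noUV libraries. The 10 hnRNPI libraries lie at the upper right, where no peak under 228 reads was listed, and in the others the lowest peak had 39 reads or fewer.

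On the rest of the transcript, peaks were listed across nearly the whole gene. The EIF4G2 peaks reached from 10818617 to 10830479, a span of 11863 nt that extends 7319 nt upstream and 4383 nt downstream of the window. RefSeq gives the gene 11881 nt. No annotation of hg19 was used, so exons, introns and UTRs are not assigned. Crosslinked libraries without PAGE listed 37 and 39 peaks for hnRNPA1, 27 in each for hnRNPc, and 15 and 12 for RBFOX2. The noUV libraries without PAGE listed 39 and 36 for hnRNPA1, 31 and 50 for hnRNPc, and 17 and 21 for RBFOX2. The numbers of peaks for hnRNPA1 overlapped between the 2 conditions, whereas those of hnRNPc and RBFOX2 were higher without crosslinking.

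As a share of each list, the rest of the transcript was higher without crosslinking for each of these 3 antibodies. Per 10000 listed peaks it had 0.743 ± 0.00314 (SD, n = 2) crosslinked and 2.00 ± 0.231 (SD, n = 2) noUV peaks for hnRNPA1, both without PAGE. For hnRNPc the values were 0.592 ± 0.0280 and 1.72 ± 0.102, and for RBFOX2 0.848 ± 0.148 and 3.32 ± 0.150 (SD, n = 2 each). The 2 conditions did not overlap in any of the 3. The log2 difference (peaks per 10000 + 0.5), averaged over the 4 antibodies with hnRNPI at 0, was -0.88 ± 0.13 (SE), with an adjusted p of 1.28e-05 (limma, Benjamini-Hochberg). Of the features tested, 45.1% passed the same threshold in either direction, so passing it does not set EIF4G2 apart. Its difference was at percentile 1.77 of all features, whose median was 0.04. Counted in RPM in place of peaks, the difference was -0.78 ± 0.55 (SE) and the adjusted p 0.26 (limma), so this call rests on the number of peaks. The median over all features was then 0.66. In RPM, too, the noUV libraries stood above the crosslinked ones without overlap. The means were 434 against 284 for hnRNPA1, 436 against 126 for hnRNPc and 280 against 164 for RBFOX2.

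With PAGE the difference was -1.09 ± 0.13 (SE), with an adjusted p of 8.56e-07 (limma, Benjamini-Hochberg), where 31.9% of features passed. Per 10000 listed peaks hnRNPA1 had 0.688 ± 0.0128 crosslinked and 1.90 ± 0.00834 noUV, and RBFOX2 0.528 ± 0.0677 and 4.28 ± 0.504 (SD, n = 2 each). For hnRNPc the crosslinked libraries had 0 and 0.977, the 0 being the short list, and the noUV libraries 1.13 and 1.64. In numbers, hnRNPA1 listed 35 peaks in each crosslinked library and 31 and 28 noUV, and RBFOX2 15 and 10 crosslinked and 14 and 9 noUV. Their higher noUV shares thus went with shorter lists and not with more peaks. For hnRNPc the numbers were 0 and 21 crosslinked and 34 and 49 noUV. The noUV lists of RBFOX2 held 30170 and 22911 peaks against 260610 and 208407. Those of hnRNPA1 were also shorter than the crosslinked ones. For hnRNPc they were longer, at 299616 and 299307 peaks against 3268 and 214849. The part of list length in these shares was not tested. The noUV libraries also had higher shares than the 10k libraries of their own accession block, at 0.621 ± 0.0841 for hnRNPc and 0.898 ± 0.341 for RBFOX2 (SD, n = 2 each), which differ from them in cell number and RNase too.

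The difference was also set side by side between antibodies. Without PAGE the log2 differences were -1.004 ± 0.26 for hnRNPA1, -1.03 ± 0.26 for hnRNPc, -1.51 ± 0.26 for RBFOX2 (SE) and 0 for hnRNPI, which had no peak in either condition. The test of the differences between antibodies gave an adjusted p of 0.0165 over all 4 (limma's moderated F, Benjamini-Hochberg, with 33% of features passing), and 0.601 without hnRNPI (9.05% passing). The result over 4 rests on hnRNPI, whose difference is fixed at 0. Among the 3 antibodies with peaks no difference passed the threshold without PAGE. With PAGE the differences were -1.01 ± 0.26 for hnRNPA1, -1.12 ± 0.26 for hnRNPc and -2.22 ± 0.26 for RBFOX2 (SE). Here the adjusted p was 0.000329 over the 4 antibodies (63.5% passing) and 0.0143 over the 3 without hnRNPI (52.3% passing), both with limma. Without the short hnRNPc list the hnRNPc difference was -0.34 ± 0.14 (SE), with an adjusted p of 0.28 (limma), and the adjusted p between the 3 antibodies was 1.57e-07 (limma). That leaves 1 crosslinked hnRNPc library with PAGE, so its spread is borrowed from the remaining groups of the fit.

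**Figure D4:**
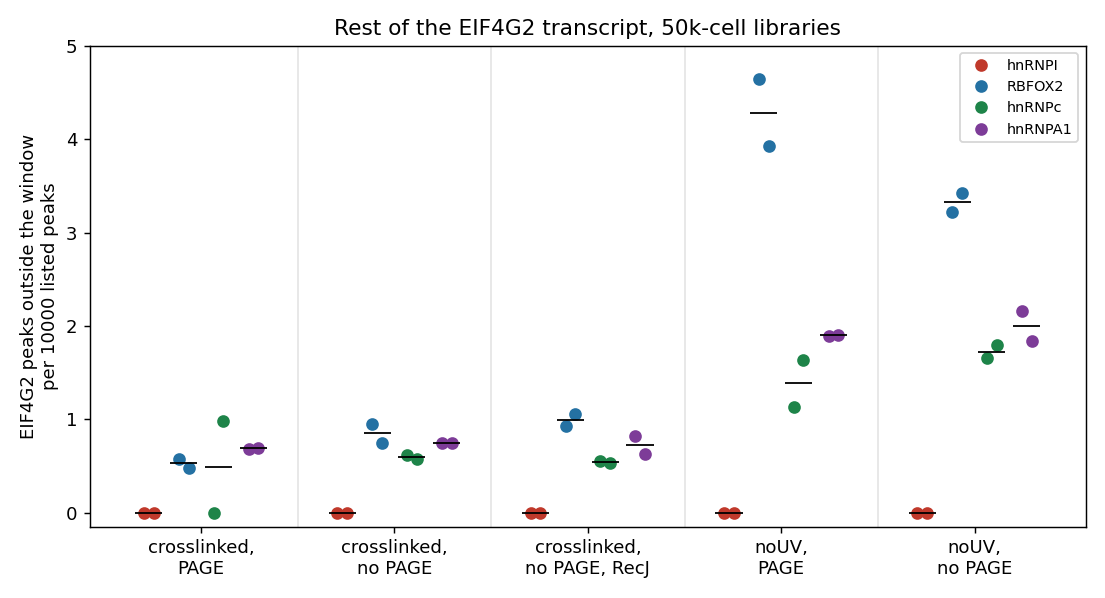
EIF4G2 peaks outside the SNORD97 window per 10000 listed peaks (y axis) in the 40 libraries from 50000 cells at 0.005 U RNase, by condition and antibody. Each dot is 1 library and each line the mean of 2. RBFOX2, hnRNPc and hnRNPA1 stand higher without crosslinking, and hnRNPI is at 0 throughout.

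Leaving out PAGE moved the rest of the transcript by 0.20 ± 0.13 (SE, log2), with an adjusted p of 0.41 (limma, Benjamini-Hochberg), where 1.49% of features passed. This value depended on the hnRNPc_50k_lowRNase group: it was 0.0044 without the short list, replicate 1, and 0.40 with an adjusted p of 2.61e-05 (limma) without replicate 2. RecJ moved it by 0.02 ± 0.13 (SE, log2), with an adjusted p of 1.00 (limma). No feature passed in that comparison (0%), and 48 had an unadjusted p below 0.05. Neither step gave a difference beyond the spread of the libraries with all of them in the fit.

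Between antibodies, in crosslinked libraries without PAGE, each was set against the mean of the other 3. hnRNPI stood lower by 1.29 on the log2 scale (-1.29 ± 0.21, SE), with an adjusted p of 0.000138 (limma), and 24.2% of features passed. This value supports nothing about the rest of the transcript. All hnRNPI libraries are at 0 there, and the size follows the pseudocount, -3.03 with 0.1 and -0.45 with 2. The gene was also selected for its window, the only place where these libraries listed it. The part of the listing floor in these zeros was not tested. RBFOX2 stood higher by 0.61 ± 0.21 (SE), with an adjusted p of 0.0215 (limma), where 45.7% of features passed. Set against only hnRNPA1 and hnRNPc, it was higher by 0.21 with an adjusted p of 0.48 (limma), and the call was also lost without either RBFOX2_50k_noPAGE library, at 0.50 without replicate 1 and 0.73 without replicate 2. hnRNPA1 differed by 0.46 ± 0.21 (SE), adjusted p 0.29 (limma, 2.46% of features passing), and by 0.037, adjusted p 0.95 (limma), against only hnRNPc and RBFOX2. Leaving out either hnRNPc_50k_lowRNase library, which is no part of this contrast but of the common spread, gave the same 0.46 an adjusted p of 0.0040 (limma). hnRNPc differed by 0.21 ± 0.21 (SE), adjusted p 0.59 (limma, 7.94% passing), and by -0.24 when hnRNPI was left out.

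Where the peaks lay differed between crosslinked and uncrosslinked libraries. In bins of 200 nt counted from the window, the largest crosslinked share of RBFOX2 and hnRNPA1 reads outside it fell in chr11:10819000-10819199 (hg19, minus strand), about 3800 nt downstream of the window, near the 3′ end of the gene. For RBFOX2 without PAGE the highest peak there had 190 and 166 reads, spanning 10819067 to 10819208 in replicate 1. This was 29.5% ± 2.68 (SD, n = 2) of its reads outside the window. With PAGE it had 189 and 146 reads, or 33.8% ± 2.01 (SD, n = 2). The peak was kept with few cells, at 216 and 209 reads in the 10k and 50 and 41 reads in the 1k libraries, where it made up between 40.6% and 59.5% of the reads outside the window.

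hnRNPA1 had its highest EIF4G2 peak at the same place, with 338 and 438 reads without PAGE, 16.4% ± 1.43 (SD, n = 2) of its reads outside the window, and with 221 and 145 reads with PAGE. For hnRNPc without PAGE, replicate 1 had 139 reads there in a broad peak from 10819019 to 10819351. In replicate 2 a peak of 100 reads reached into the bin but was counted in the next, so the bin's share for hnRNPc depends on where its edge falls. With RecJ hnRNPc had 69 and 91 reads, and in the mediumRNase libraries only peaks counted in another bin reached into it, with 24 and 29 reads. In hnRNPc_10k replicate 2 and hnRNPc_1k replicate 1 nothing was listed there.

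Without crosslinking this bin had fewer reads or no cluster. In noUV_noPAGE, hnRNPA1 had no cluster in the bin, with 1 peak of 73 reads reaching into it in replicate 2. hnRNPc had none in either library. RBFOX2 had 22 reads in replicate 1, 10.3% of its reads outside the window, and none in replicate 2. The adjoining bin on the upstream side did hold noUV_noPAGE clusters. Its shares were 13.1% and 5.11% for RBFOX2, 4.47% and 4.79% for hnRNPA1, and 2.07% and 1.99% for hnRNPc. In the crosslinked libraries without PAGE they were 0 and 0, 1.87% and 0, and 0 and 15.9%. In noUV with PAGE hnRNPA1 had clusters of 27 and 19 reads, about 2% of its reads outside the window (2.09% and 1.89%), and peaks of 51 and 53 reads reached into it from outside. RBFOX2 had 6 and 9 reads there, which were 5.83% and 14.5% of its reads outside the window, in libraries whose highest peak outside the window had 11 and 10 reads. So with PAGE the RBFOX2 site was listed without crosslinking too, at a lower share than with it. hnRNPc listed none. Other sites went both ways: some were listed at similar or higher shares without crosslinking, and some at lower shares or not at all. The bin was chosen by its crosslinked values, so this is a description. In hnRNPA1 the downstream site had up to 438 reads with crosslinking, while the SNORD97 window was listed under EIF4G2 in the noUV libraries and, with crosslinking, only under the second identifier, at 13 to 27 reads in 3 libraries.

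The other bins that were among the top 2 of an antibody by crosslinked share were listed without crosslinking too. For hnRNPA1 it was chr11:10822000-10822199, about 800 nt downstream of the window, with 234 and 272 reads crosslinked and 133 and 211 noUV, both without PAGE. These were 10.8% ± 0.110 and 11.2% ± 3.77 of the reads outside the window (SD, n = 2 each). For hnRNPc it was chr11:10828400-10828599, upstream of the window, with 72 and 73 reads crosslinked, 8.57% ± 0.210, and 139 and 186 noUV, 13.2% ± 5.23 (SD, n = 2 each). For RBFOX2 it was chr11:10827400-10827599, with 104 and 111 reads crosslinked, 16.5% ± 1.89 (SD, n = 2), and 10 and 37 noUV, 4.67% and 9.95%. hnRNPc listed this last bin too, with 66 and 45 reads crosslinked and 93 and 154 noUV.

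**Figure D5:**
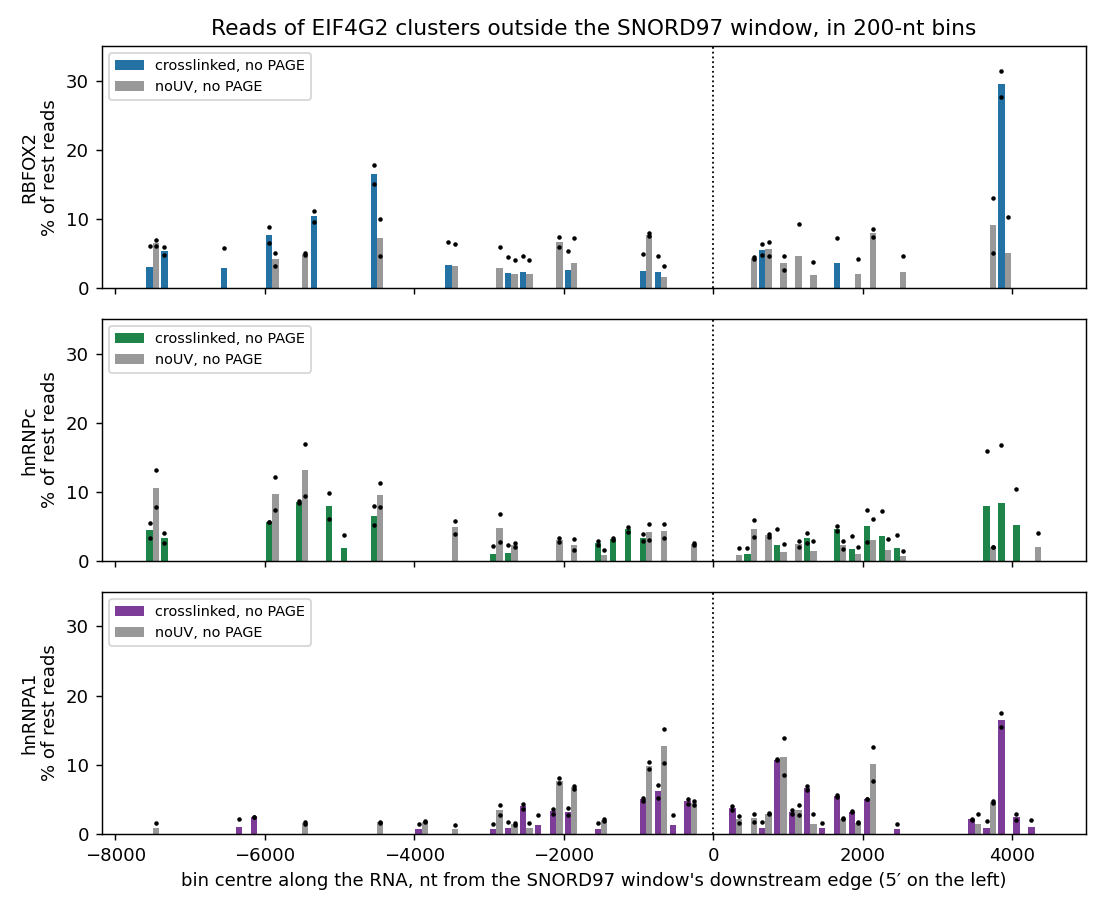
Share of the listed EIF4G2 reads outside the SNORD97 window (y axis, %) in 200-nt bins along the RNA, 5′ on the left, with the window at 0 (dotted line), for RBFOX2, hnRNPc and hnRNPA1 without PAGE. Bars are means of 2 libraries, crosslinked in colour and noUV in grey, and dots are the libraries with a cluster in that bin. The crosslinked RBFOX2 and hnRNPA1 bars near 3900 nt downstream are the tallest of their panels.

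Peaks on the rest of the transcript were partly shared between antibodies. After joining peaks less than 30 nt apart, 19 of 24 and 18 of 24 clusters of the crosslinked hnRNPA1 libraries without PAGE overlapped a cluster of the other replicate. RBFOX2 clusters overlapped their replicate at 6 of 12 and 6 of 10. Of the same RBFOX2 clusters, 6 of 12 and 8 of 10 were overlapped by hnRNPc, and 5 of 12 and 3 of 10 by hnRNPA1. The uncrosslinked clusters of different antibodies met more often: 22 of 25 and 22 of 23 noUV_noPAGE hnRNPA1 clusters were overlapped by noUV_noPAGE hnRNPc, against 14 of 24 and 10 of 24 for the crosslinked pair. The difference between these shares was not tested, and cluster number and width also bear on overlap.

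Across the 30 groups outside the gel regions, the gene whose mean log2 RPM ran most like those of the window was the second identifier in the same place, ENSG00000238622, with a Pearson r of 0.972 among 12455 genes compared. The next was ENSG00000105963 at 0.875. The groups share antibodies and list lengths, and the files give no names for these identifiers.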

How the data were processed

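The deposited data are 1 peak list per library, not pooled. The submitters' processing notes name bcl2fastq, STAR 2.7.3a, UMI-tools 1.0.1 and hg19, with no role or order, and the lists are named after CLIPper. The cut-offs and the annotation are not stated in these sources. Each p-value in the lists is the deposited one, at most 0.00755, with no adjustment stated. The last number of a peak name, read as reads, was at least 4. Coordinates were turned to 1-based.

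Features were genes with a mean of at least 1 peak over the 40 fitted libraries (20 groups of 2), with EIF4G2 split in window and rest, 13344 in all. The rest was tested as log2(peaks per 10000 listed peaks + 0.5) and the window as log2(RPM + 1), RPM being reads per 1000000 listed reads,, with limma 3.58.1 (R 4.3.3) and Benjamini-Hochberg adjustment at 0.05. The fit was tested on simulated data with known changes before use.

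The members and lists were chosen with earlier results of these data known. Named bins were, per antibody, the 2 of 200 nt with the largest mean crosslinked share without PAGE. Alternatives were 2 other pseudocounts, no filter, deposited p-values below 1e-05, clusters, the other measure, median centring, a window wider by 100 nt, a replicate block, and leaving out each library. Leaving out hnRNPI, and leaving the short hnRNPc list out of the test between antibodies, were added after seeing the data. No genome of the build of the lists was at hand, and the RefSeq table (GRCh38.p14) served for names and lengths only, so no sequence is printed. No column of per-sample values was left unused.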

Additional observations from a re-analysis of the deposited data

Results flagged for a closer look

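Effects of opposite direction between antibodies stood out at the SNORD97 window, where every library of the groups compared moved the same way within its antibody and the difference was not tested. Without PAGE, crosslinking minus noUV was 0.94 (log2 of RPM + 1) for RBFOX2, against -4.16 for hnRNPA1, a gap of 5.10, against -1.28 for hnRNPc, a gap of 2.23, and against -1.75 for hnRNPI, a gap of 2.69. Among crosslinked libraries, leaving out PAGE went with a difference of 1.17 for RBFOX2 and -0.45 for hnRNPI, a gap of 1.62. The RBFOX2 value of 0.94 lay near the median of all its features, 0.72, at percentile 55.6, and with PAGE the RBFOX2 window moved by -0.59, the same direction as in the other antibodies. The hnRNPA1 value rests on crosslinked libraries with no listed peak and so on the pseudocount.

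On the rest of the transcript, the difference between crosslinked and noUV libraries was compared between antibodies by limma's moderated F test with Benjamini-Hochberg adjustment. Over the 4 antibodies the adjusted p (limma) was 0.0165 without PAGE (33% of features passing) and 0.000329 with PAGE (63.5%). Both include hnRNPI, whose difference is fixed at 0. Over the 3 others it was 0.601 without PAGE (9.05%) and 0.0143 with PAGE (52.3%). Passing with PAGE, as most features did, does not set EIF4G2 apart. The hnRNPc difference with PAGE also depended on the short list, at -1.12 with it and -0.34 without.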

How the results depend on the processing

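Of 448 values under other settings, 434 kept their direction and side of the threshold, and the cause of the other changes was not tested. With reads in place of peaks, the crosslinking difference without PAGE was -0.78 (adjusted p 0.26, limma), hnRNPA1 against the other antibodies 3.37 (0.0233), and the RecJ difference of the window, counted as peaks, 0.0646. The hnRNPA1 value includes hnRNPI, which had 0 reads outside the window. The mean RPM there was 284 for hnRNPA1, 164 for RBFOX2 and 126 for hnRNPc. With deposited p-values below 1e-05, RBFOX2 against the others was 0.72 (adjusted p 0.060, limma). Without hnRNPI, hnRNPc against the others turned to -0.24, RBFOX2 fell short at 0.21 and hnRNPA1 went from 0.46 to 0.037. Leaving out 1 library at a time gave -0.91 to -0.86 for crosslinking without PAGE, -1.28 to -0.89 with PAGE, 0.0044 to 0.40 for leaving out PAGE, -0.013 to 0.044 for RecJ and -0.072 to 0.0031 for RecJ at the window. For the antibodies it gave 0.43 to 0.50 (hnRNPA1), 0.18 to 0.25 (hnRNPc), -1.33 to -1.25 (hnRNPI) and 0.50 to 0.73 (RBFOX2). RecJ turned to -0.013 without RBFOX2_50k_noPAGE replicate 2 or hnRNPA1_50k_noPAGE_RecJ replicate 1, and at the window to 0.0031 without hnRNPc_50k_noPAGE replicate 1.

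Counts over all features moved with single libraries: without hnRNPc_50k_lowRNase replicate 2, leaving out PAGE called 5036 features in place of 199, and without either library of that group hnRNPA1 called 1074 in place of 328 and hnRNPc 2265 in place of 1060. Median centring left 1 call for PAGE and 117 for hnRNPA1. It also moved the share of calls that were higher from 49.2% to 22.0% for crosslinking with PAGE, from 44.3% to 72.1% for hnRNPI, from 36.5% to 58.5% for hnRNPc and from 56.6% to 34.7% for RBFOX2. With a replicate block the crosslinking difference without PAGE stayed at -0.88 with 6020 calls, and no call for EIF4G2 changed. Same-numbered libraries of different groups did not in general deviate together (median correlation -0.0008, highest 0.186, 5 of 190 pairs over 0.1). Pairing within 1 antibody or preparation was not looked at separately. Depth is unknown, and peaks under the listing floor of a library cannot be seen.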
